A study of Mus musculus with 4 samples.

Results

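The proximal 3′ UTR of an mRNA is taken here as the stretch from 201 to 1000 nt after the stop codon, and 2109 m6A regions found in both brain replicates had their midpoint there. They were chosen by position alone. Every peak of replicate 1 was intersected with every peak of replicate 2, at least 1 common base was required, and the common bases were kept as an interval. The midpoint of each interval was then placed on the spliced mRNA of GENCODE M21 (mouse build mm10) with the longest coding sequence (CDS) of its gene, and midpoints in exons of several such mRNAs were left out. Of 23901 shared intervals, 19713 could be placed and 5699 of these fell in a 3′ UTR, so that the proximal intervals made up 8.82% of all shared intervals and 37.0% of those in a 3′ UTR. They lay in 2034 genes.

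m6A-seq was performed on poly(A) RNA of whole brain of mice at 4 weeks of age. The labels give the strain as C57BL/6J and the series describes the animals as Prrc2a flox/flox mice, that is with Prrc2a alleles that Cre could delete, and names no Cre. Immunoprecipitated RNA (IP, 2 samples) and input RNA (2 samples) came from the same genotype, tissue and age, and peak lists were used for the IP samples only. There is no second condition, so that every comparison below is between positions along mRNAs, with the 2 replicates given side by side. How many animals went into a sample is not given in the sources used here. Replicate 1 had 38533 peaks and replicate 2 had 30134. Read numbers are unknown here, and intervals of shares therefore cover counting error only.

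m6A is a methyl group on the N6 position of adenosine. It is placed on nascent RNA by a complex around the methyltransferase Mettl3 and its partner Mettl14, mostly in the sequence context DRACH, where D stands for any base but C, R for a purine and H for any base but G. The demethylases Fto and Alkbh5 can remove it, and readers such as the YTH-domain proteins bind it and alter the decay, translation or transport of the mRNA. In mammalian mRNAs the mark is known to be dense near stop codons and in long last exons. The 3′ UTR is also where microRNAs, deadenylation factors and localisation factors bind, and neuronal mRNAs often carry long ones.

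The sequences below are the sites of the strongest intervals, printed to show what the antibody-enriched regions look like at base level. For each of the 15 intervals with the highest lower value of both fold enrichments (1 per gene), the GGACT nearest the midpoint within the common bases is shown, or the nearest GGAC where there was no GGACT. Each is read 5′ to 3′ on the strand of the mRNA, 12 nt either side of the central A, with the motif in capitals, and each matched the mm10 genome. A motif marks where m6A could lie, since peaks do not resolve the modified base.
Irs1 (chr1:82237331-82237355, minus strand): tgaactttaaGGACagctggtcacg
Pdgfa (chr5:138976818-138976842, minus strand): ccgccctgcaGGACTgaccctcgag
Minar1 (chr9:89590594-89590618, minus strand): gcttctcctcGGACTtttattaagg
Shpk (chr11:73224012-73224036, plus strand): acagctaaagGGACcacagagcact
Sulf1 (chr1:12859015-12859039, plus strand): aaagcaaatgGGACTccaaccacac
Scml4 (chr10:42958409-42958433, plus strand): gcttgcacagGGACagggaatgaag
Gm19935 (chr8:90816592-90816616, minus strand): agaggacaaaGGACTgcttcattcc
Itga8 (chr2:12108638-12108662, minus strand): tatgatgttgGGACTatgaaagtgc
Sesn2 (chr4:132493507-132493531, minus strand): tttcctcactGGACTgaacaggacc
B630019K06Rik (chrX:8894386-8894410, plus strand): agcaaatctgGGACTtgaactaggg
Lhx1 (chr11:84519229-84519253, minus strand): ctggatccatGGACagactccacca
Xxylt1 (chr16:30957134-30957158, minus strand): gcagcccgaaGGACTgacacgggtg
Zfp780b (chr7:27962082-27962106, minus strand): taggcaaggaGGACaagccagtgga
The A of the Sulf1, Gm19935, Xxylt1 and Sesn2 sites lies 185, 189, 192 and 197 nt after the stop codon, just before the zone. The other members of the 15 were Hbegf, whose site is not shown here, and Gm4841, whose common bases held no GGAC.

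The strongest interval was that of Irs1, the insulin receptor substrate that couples the insulin and IGF1 receptors to PI3 kinase, with a fold enrichment of IP over input of 6.71 in replicate 1 and 6.67 in replicate 2. Its interval was centred 227 nt after the stop codon, within a 3′ UTR of 4525 nt. Pdgfa, the ligand that drives the division of oligodendrocyte precursors through Pdgfra, had 5.98 and 5.99 at 293 nt, and its common bases covered most of a 3′ UTR of 725 nt. The precursor of the EGF receptor ligand HB-EGF, Hbegf, had 6.63 and 5.25. Sesn2, a stress-induced inhibitor of mTORC1, had 7.05 and 5.12, and 4 GGACT in its common bases. The replicates were nearly equal in Irs1 and Pdgfa, and replicate 1 was the higher in Hbegf and Sesn2.

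The other genes of the strongest 15 have varied functions. Sulf1, an extracellular sulfatase that trims heparan sulfate, had 6.26 in replicate 1 and 5.52 in replicate 2, and Itga8, an integrin alpha chain, had 6.09 and 5.25. Xxylt1, a xylosyltransferase that acts on the EGF repeats of Notch, had 6.53 and 5.0. Lhx1, a LIM homeobox transcription factor, was among the few that were higher in replicate 2, with 5.02 and 5.74. The zinc finger gene Zfp780b had 7.89 and 4.98, the widest gap of the 15. Minar1, Shpk (sedoheptulokinase), Scml4, Gm19935, Gm4841 and B630019K06Rik lay between 5.05 and 7.27 in replicate 1 and between 5.31 and 6.21 in replicate 2. In Sulf1, Itga8, Sesn2, Shpk, Scml4, Gm19935, Gm4841, Hbegf and Xxylt1, the proximal interval was the only placed interval of the gene.

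The intervals thinned out steadily with distance from the stop codon. Over the mRNAs with at least 1 placed interval, there were 1.53 midpoints per kb of 3′ UTR in the first 100 nt, 0.784 from 201 to 300 nt, 0.399 from 401 to 500 nt and 0.227 from 901 to 1000 nt. Beyond 2000 nt the density was 0.104 per kb. Taken whole, the proximal zone had 0.397 midpoints per kb, against 0.663 in the CDS, 0.139 in the 3′ UTR beyond 1000 nt, and 0.539 over the entire mRNA, which is 0.737 times the density of the whole mRNA. The peaks of each replicate alone gave 0.672 in replicate 1 and 0.672 in replicate 2. Only the first 100 nt of the zone were above the density of the CDS. The borders of the zone are therefore not steps in the data: 447 placed intervals lay in the last 50 nt before the zone and 355 in its first 50 nt, and 54 lay on either side of its far border.

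**Figure D1:**
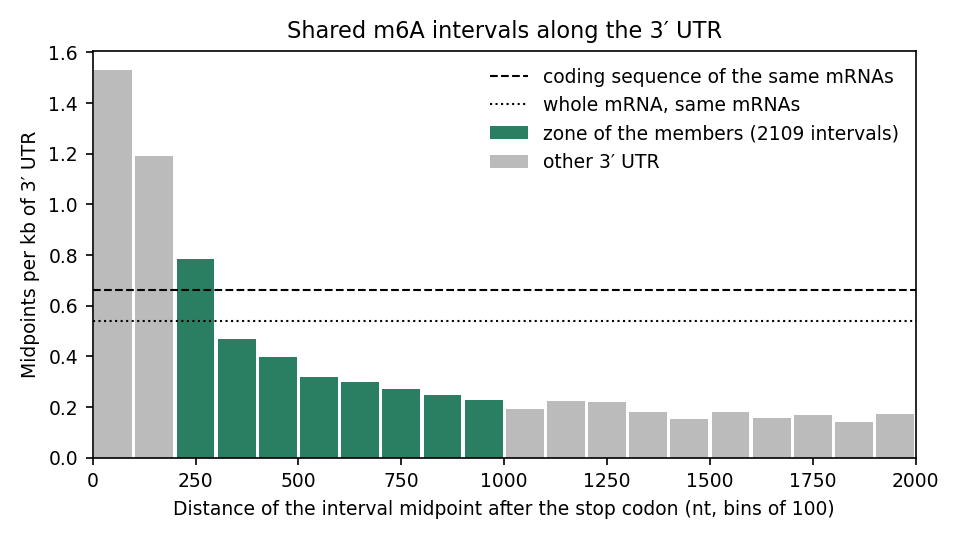
Shared m6A intervals per kb of available 3′ UTR (y axis) in bins of 100 nt after the stop codon (x axis), for mRNAs with at least 1 placed interval. Green bars are the proximal zone and grey bars the rest of the 3′ UTR, and lines give the CDS (0.663 per kb) and the whole mRNA (0.539 per kb). The density falls from 1.53 per kb in the first bin to 0.784 at the start of the zone and 0.227 at its end.

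Within the zone, the median midpoint lay 417 nt after the stop codon (quartiles 278 and 646 nt). The common bases had a median length of 368 nt (quartiles 261 and 613, range 7 to 1996), far longer than a modification site. Because of this length, only 801 of the 2109 intervals (38.0%, 95% Wilson interval 35.9 to 40.1) lay wholly inside the zone. The common bases of 452 intervals (21.4%, 19.7 to 23.2) reached back over the stop codon, and for 913 (43.3%, 41.2 to 45.4) at least 1 of the peaks behind them did. Conversely, 104 intervals reached the annotated 3′ end. Members thus include broad peaks that span the stop codon and the UTR as well as peaks confined to the UTR. Fold enrichment by position and the GGACT share are also given for the 2 kinds apart. The gene lists, the values of named genes and the remaining results are not separated. Among named genes the common bases begin before the stop codon in Xxylt1, Gm19935, Lhx1, Sulf1, Kcna6, Dlgap4, Gabbr2, Acvr1, Ntrk2 and Ier5, among others.

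Nearly every proximal interval, 2102 of 2109 (99.7%, 99.3 to 99.8), was in the last exon of its mRNA, against 91.8% of the intervals within 200 nt of a stop codon. In spliced mRNAs the median distance from the last exon junction was 617 nt (quartiles 412 and 939). The label held in other annotated isoforms as well. Of the 2109 midpoints, 2095 (99.3%, 98.9 to 99.6) were 3′ UTR in every coding isoform of the gene with an exon at that base, 13 were CDS in another isoform and 1 was 5′ UTR. Alternative 3′ ends were more common: 384 midpoints (18.2%, 16.6 to 19.9) lay beyond the 3′ end of an annotated isoform with the same stop codon, so that this isoform would lack the interval.

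Of the 16937 genes whose 3′ UTR reached into the zone, 2034 held a proximal interval, which is 12.0% (11.5 to 12.5). Among the 8299 of these that had any placed interval, and were therefore known to be expressed and enriched in these samples, the share was 24.5% (23.6 to 25.4). In bulk tissue, fewer cells of a type and less RNA per cell cannot be told apart. Member genes had a median 3′ UTR of 1484 nt, against 1366 nt for the 8299 genes. The share rose with the bases on offer, from 6.36% (5.16 to 7.82) of genes with a 3′ UTR of up to 500 nt to 29.1% (27.0 to 31.2) above 500 and up to 1000 nt and 30.1% (28.3 to 32.0) above 1000 and up to 2000 nt. It was lower in the longest class, at 24.6% (21.7 to 27.7) above 4000 nt. Per kb of zone the order was different: UTRs above 500 and up to 1000 nt held 0.552 intervals per kb and UTRs above 4000 nt held 0.320. In the 3 classes above 1000 nt, where the whole zone was available, the median midpoint lay 474, 476 and 464 nt after the stop codon, in order of rising UTR length.

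Fold enrichment of the proximal intervals had a median of 3.19 in replicate 1 (quartiles 2.37 and 4.32, range 1.12 to 9.79) and of 2.52 in replicate 2 (2.02 and 3.13, range 1.16 to 8.13). Replicate 1 was the higher in 1598 of 2109 intervals (75.8%, 73.9 to 77.6), the same direction as over all placed intervals, whose medians were 3.03 and 2.32. Across the 2109 intervals, all from the same pair of samples, Spearman's rho between the replicates was 0.586, and Pearson's r of the log2 values was 0.572. Both replicates were at 2 or higher in 1487 intervals (70.5%), and at 4 or higher in 92. At the weak end, 11 stayed under 1.5 in both.

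Some intervals differed strongly between the replicates. The values were more than 2-fold apart in 173 intervals, of which 162 were higher in replicate 1 and 11 in replicate 2. The largest gap in favour of replicate 2 was in Lnx2, an E3 ubiquitin ligase of Numb, with 2.28 in replicate 1 and 8.13 in replicate 2. Next came Kcnb2, a potassium channel of the Shab family, with 2.44 and 6.81. In the other direction stood Tmem132e, with 6.96 in replicate 1 and 1.73 in replicate 2. In each of these 3 genes the high value belonged to the wider peak: the Kcnb2 peak was 2101 nt long in replicate 2 and 224 nt in replicate 1, and the Tmem132e peak 1649 nt in replicate 1 and 239 nt in replicate 2. A peak carries a single value for its whole length, so that the value of a wide peak need not stem from the proximal UTR.

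**Figure D2:**
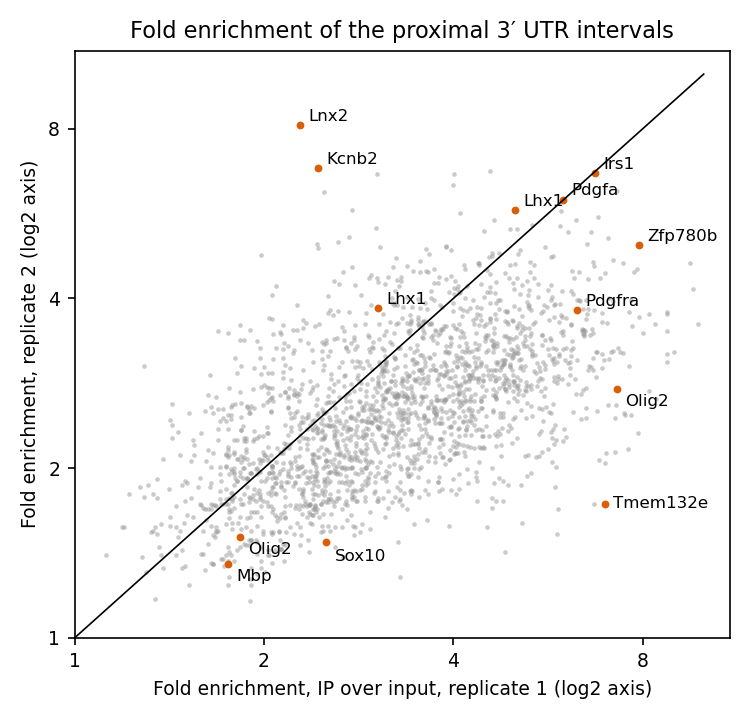
Fold enrichment of IP over input for the 2109 proximal intervals in replicate 1 (x axis) and replicate 2 (y axis), both log2 axes, 1 point per interval. The line marks equality and 75.8% of the points lie on the replicate 1 side. Orange points are intervals of genes named in the text, among them Irs1 at 6.71 and 6.67 and Lnx2 at 2.28 and 8.13.

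To see whether enrichment depended on position, the proximal intervals were set beside the 4534 intervals within 200 nt of a stop codon and the 1209 intervals more than 1000 nt into the 3′ UTR. Against stop codons the difference of median log2 fold enrichment was -0.05 in replicate 1 and 0.01 in replicate 2, and it was -0.24 and -0.09 without the proximal intervals whose peaks also covered the stop codon. Against the distal UTR it was 0.15 and 0.11, higher in the proximal zone in both replicates, and small beside the SD over proximal intervals of 0.58 and 0.44 on the log2 scale. The 913 intervals with a peak over the stop codon had a median fold enrichment of 3.81 in replicate 1 and 2.75 in replicate 2, whereas the 1196 intervals without such a peak had 2.78 and 2.36, close to the 2.87 and 2.34 of the distal intervals. Without the former, the proximal minus distal difference was -0.05 in replicate 1 and 0.02 in replicate 2. Only proximal intervals were left out in this way, and the stop codon and distal sets were kept whole. A peak that covers the stop codon and a midpoint in the zone has to span more than 200 nt. Peak length was not matched, so this split does not separate position from peak length. With 2 replicates, no test over samples was made.

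**Figure D3:**
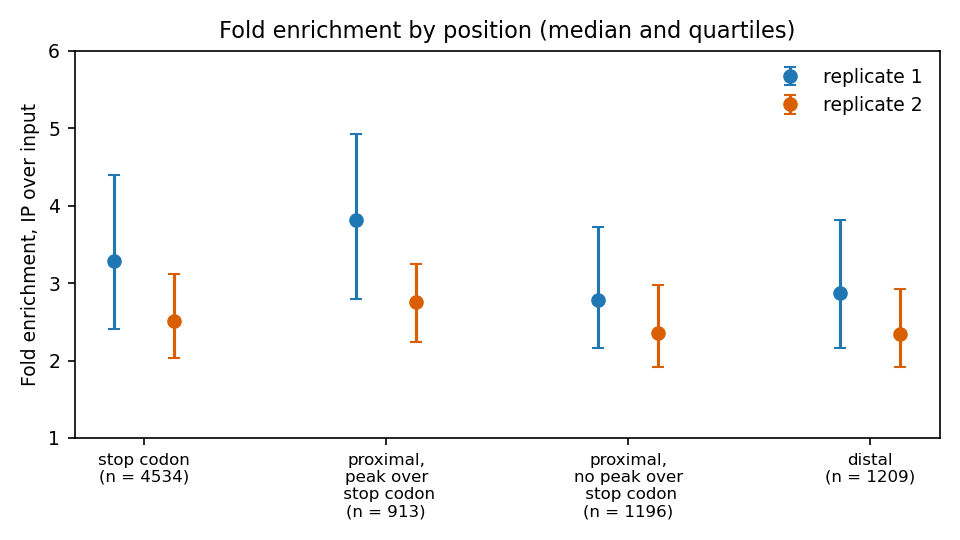
Median fold enrichment of IP over input (y axis, points, with quartiles as bars) for stop codon intervals, proximal intervals with and without a peak over the stop codon, and distal 3′ UTR intervals (x axis), replicate 1 in blue and replicate 2 in orange. Proximal intervals with such a peak have the highest medians (3.81 and 2.75), and those without it (2.78 and 2.36) lie beside the distal ones (2.87 and 2.34). Peak length was not matched between the groups.

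Intervals were also compared within the same mRNA, where input coverage can still differ between positions. A proximal and a stop codon interval were both present in 500 genes, and the median difference of log2 fold enrichment, proximal minus stop codon, was -0.07 in replicate 1 and 0.00 in replicate 2. In replicate 1 the proximal interval was the stronger in 163 genes (32.6%, 28.6 to 36.8), the weaker in 266 and equal in 71. In replicate 2 the corresponding numbers were 197 (39.4%, 35.2 to 43.7), 223 and 80. Intervals of a gene were averaged on the log2 scale within each position. The same peak was behind a proximal and a stop codon interval in 74 genes in replicate 1 and 85 in replicate 2, and not all of these were equal after averaging. In the 341 genes whose intervals came from separate peaks in both replicates, the median difference was -0.21 and -0.03, and the proximal interval was the stronger in 37.8% (32.8 to 43.1) and 47.5% (42.3 to 52.8) of genes. In both replicates at once it was the stronger in 98 and the weaker in 148 of them.

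Against the distal UTR of the same mRNA the proximal interval was more often the stronger. In 345 genes with both, the median difference of log2 fold enrichment, proximal minus distal, was 0.16 in replicate 1 and 0.07 in replicate 2. The proximal interval was the stronger in 209 genes (60.6%, 55.3 to 65.6) in replicate 1 and in 194 (56.2%, 51.0 to 61.4) in replicate 2, and in both replicates at once in 138, while it was the weaker in both in 60. Members with a peak over the stop codon were kept in this count.

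The 5 genes whose proximal interval exceeded the stop codon interval by most in both replicates, chosen for this difference, were B630019K06Rik, Pdgfa, Dab1, Bod1 and Arhgap26. In Pdgfa the proximal interval had 5.98 and 5.99, and the stop codon interval, centred 78 nt before the stop codon (nt after stop -78), had 2.36 and 2.44. Dab1 encodes the adaptor through which reelin guides migrating neurons. Its proximal interval had 4.39 in replicate 1 and 3.59 in replicate 2, and the one upstream of the stop codon 1.76 and 1.81. Bod1, which acts in chromosome biorientation at mitosis, had 3.71 and 2.55 in the UTR and 1.21 and 1.30 near the stop codon. In Arhgap26, a GTPase-activating protein, the values were 3.72 and 4.51 against 1.91 and 1.5, and in B630019K06Rik 5.05 and 5.31 against 1.70 and 1.76. The Arhgap26 interval begins before the stop codon. On the mRNA, that of Pdgfa begins 14 nt after the stop codon. Its common bases and its replicate 1 peak run on from there into the intron before the last exon. These values are thus not placed in the proximal UTR alone.

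Peaks of the zone were found again as often as those at stop codons. Of 2663 replicate 1 peaks with their own midpoint in the zone, 2048 overlapped a replicate 2 peak, 76.9% (75.3 to 78.5), and the difference from stop codon peaks was -0.860 percentage points (95% Newcombe interval -2.82 to 1.05). Of 2415 replicate 2 peaks, 2060 were found in replicate 1, 85.3% (83.8 to 86.7), with a difference of -0.255 points (-2.0 to 1.42). Distal 3′ UTR peaks were found again less often, with a difference, proximal minus distal, of 16.0 points (13.3 to 18.8) in replicate 1 and 9.38 points (6.83 to 12.0) in replicate 2. The proximal peaks seen in 1 replicate only were weaker and shorter. Their median fold enrichment was 2.47 against 3.16 for those found again in replicate 1, and 1.84 against 2.53 in replicate 2, and their median length 268 nt against 471 nt and 270 nt against 475 nt.

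Many member genes had no other interval near the stop codon. A stop codon interval was present in 500 of the 2034 member genes (24.6%, 22.8 to 26.5). Each interval counts at a single position, and the 913 members with a peak over the stop codon are counted as proximal only. No comparison with other genes is drawn from this share, since a gene enters the background through an interval that must lie outside the zone. A CDS interval more than 200 nt before the stop codon was present in 943 member genes (46.4%, 44.2 to 48.5), and a 5′ UTR interval in 379 (18.6%). Among genes with a UTR above 1000 nt, 345 of 1426 member genes (24.2%, 22.0 to 26.5) had a distal interval, against 16.4% of 3763 others, a difference of 7.77 points (5.30 to 10.3). The others must hold an interval outside the zone here too, so that no conclusion is drawn from this difference. For 631 member genes (31.0%, 29.0 to 33.1) the proximal UTR held all their placed intervals.

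The sequence context was examined in windows of 50 nt either side of the midpoint, on the strand of the mRNA. GGACT, the most common m6A context, was present in 419 of 2106 windows (19.9%, 18.2 to 21.7). As background, windows of the same width were tiled over the same zone of all representative mRNAs, and those touching no peak of either replicate were kept. Of these 65285 windows 7.31% (7.11 to 7.51) held GGACT, a difference of 12.6 points (10.9 to 14.4). Against the peak-free windows of the member genes themselves the difference was 12.8 points (10.9 to 14.8). The reverse complement AGTCC, which has the same GC content and no m6A context, was in 8.78% of member windows and 7.64% of peak-free windows, a difference of 1.14 points (-0.0127 to 2.44). The core GGAC was in 47.1% and 21.1%, respectively, and the wider DRACH in 92.1% and 85.8%. GTCC, the reverse complement of the core, was in 30.2% and 24.1%, a difference of 6.05 points (4.09 to 8.07). Against the peak-free windows of member genes the GTCC difference was 1.54 points (-1.03 to 4.14). GGACT and its reverse complement do not overlap each other, while every GGACT holds a GGAC and a DRACH. For GGACT, the proximal share differed from that of stop codon windows (20.2%) by -0.291 points (-2.33 to 1.81) and from that of distal windows by -0.138 points (-3.01 to 2.65). For GGAC the difference from stop codon windows was -3.10 points (-5.67 to -0.510), and for DRACH that from distal windows was 2.05 points (0.0641 to 4.16).

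GGACT was concentrated around the midpoints. Its density was 2.49 sites per kb in the 20 nt from the midpoint on and 2.42 between 60 and 41 nt before it, and 1.08 from 200 to 219 nt after it, where AGTCC had 1.13. AGTCC lay between 0.691 and 1.35 per kb in all bins. Over the whole common bases, 54.2% of the intervals held a GGACT, 686 of them exactly 1 and 168 at least 3, and 85.8% held a GGAC. Fold enrichment differed little with the presence of 1 GGACT in the window: the median fold enrichment was 3.14 and 2.52 in the replicates without GGACT, 3.29 and 2.55 with 1, and 4.09 and 2.65 in the 47 windows with 2 or more. With the intervals cut into 5 classes of equal size by the lower fold enrichment, the share with GGACT was 15.2% in the weakest class (64 of 421) and between 19.7% and 22.7% in the others. Along the zone it was 20.4% (17.5 to 23.7) up to 300 nt and 22.1% (17.5 to 27.5) from 801 to 1000 nt.

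**Figure D4:**
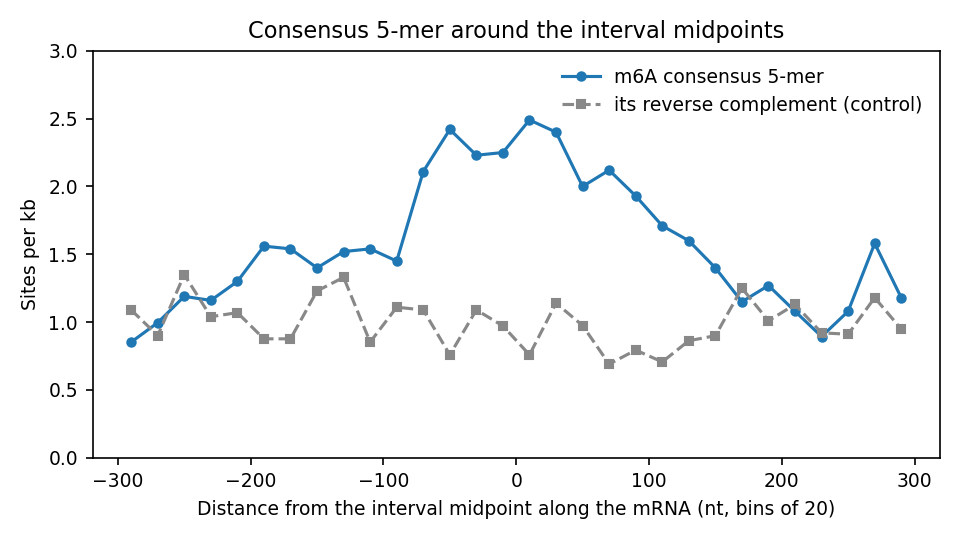
Sites per kb (y axis) of the m6A consensus 5-mer (blue) and of its reverse complement (grey, control) in bins of 20 nt by distance from the midpoint of the proximal intervals along the mRNA (x axis). The consensus reaches 2.49 per kb at the midpoint and comes down towards the control, to 1.08 against 1.13 per kb from 200 to 219 nt downstream.

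Among all 1024 5-mers ranked by their frequency in member windows over that in the peak-free windows of mRNAs with a placed interval, GGACT was at rank 4 with a ratio of 3.14 (2.29 against 0.729 per kb), behind CGGAC (4.86) and 2 rare 5-mers with CG. GGACA (2.65) and GGACC (2.45) were also among the first 25, whereas AAACT (0.82) and TAACT (0.52), which fit DRACH as well, were less frequent than in peak-free windows. In all, 13 of the 18 DRACH 5-mers were more frequent in member windows. Base composition moved with these counts, since the median GC content was 52.5% in member windows and 42.6% in those peak-free windows. In windows of 40 to 50% GC, GGACT was in 17.2% of 669 member windows and 7.49% of 9096 peak-free windows, and in windows of 50 to 60% GC in 21.1% and 10.0%. AGTCC was at 6.58% and 9.18% in the former class. The excess of GGACT was thus present at like GC content.

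AU-rich and polyadenylation signals were less frequent in member windows than in peak-free windows of the zone. ATTTA, the core of AU-rich elements that recruit decay factors, was in 4.89% (4.05 to 5.90) of member windows against 13.4% (12.2 to 14.7) of the peak-free windows of the same genes, a difference of -8.49 points (-10.1 to -6.90). For the polyadenylation signal AATAAA the values were 3.09% and 5.38%, a difference of -2.29 points (-3.41 to -1.15), and for TGTANATA, the site of Pumilio proteins, 1.04% and 2.54%, a difference of -1.50 points (-2.25 to -0.752). Low shares were not particular to the proximal zone. In stop codon and distal windows, respectively, ATTTA was in 4.48% and 5.55%, AATAAA in 2.84% and 2.48%, and TGTANATA in 0.555% and 0.911%. All of these motifs are rich in A and T, and the peak-free windows of member genes had a median GC content of 46.5%. What part base composition has in the difference was not tested.

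Which kinds of brain genes carried a proximal interval was described with 11 gene lists, whose counts are read against the 24.5% of all genes with a placed interval. Genes of the oligodendrocyte lineage, which specify or build the myelinating glia, had the highest share, 12 of 25 (48.0%, 30.0 to 66.5). Glutamate receptor genes followed with 9 of 22 (40.9%, 23.3 to 61.3), GABA receptor genes with 4 of 11 (36.4%, 15.2 to 64.6), voltage-gated potassium channel genes with 10 of 29 (34.5%, 19.9 to 52.7) and genes of synaptic scaffolds and adhesion with 9 of 27 (33.3%, 18.6 to 52.2). Only the interval of the first list lay wholly above this background, which covers all UTR lengths. The median 3′ UTR of that list was 1306 nt. Among genes with a placed interval and a UTR above 1000 and up to 2000 nt, the share was 30.1% (28.3 to 32.0). That share lies inside the interval of the list, and the lists were not matched for UTR length. Growth factor and insulin signalling (11 of 39, 28.2%) and neural transcription factors (8 of 33, 24.2%) were near the 24.5%. So were immediate early genes (5 of 22, 22.7%) and RNA-binding and microRNA pathway genes (6 of 29, 20.7%). The m6A machinery had 2 of 18 (11.1%, 3.10 to 32.8). The nuclear genes of oxidative phosphorylation had none, and with a median 3′ UTR of 186 nt only 20 of their 45 mRNAs reached the zone and 5 of these had any placed interval.

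**Figure D5:**
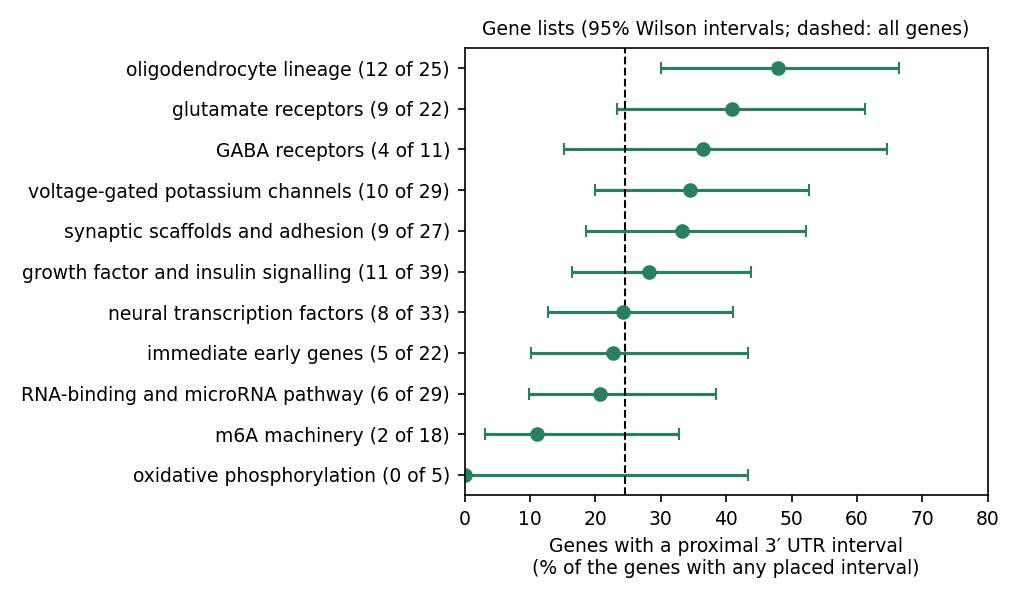
Share of genes with a proximal 3′ UTR interval among the genes of each list with any placed interval (x axis, points, with 95% Wilson intervals as bars), and the counts in parentheses (y axis). The dashed line is the share over all genes, 24.5%. The oligodendrocyte lineage list has the highest share, 48.0%, and oxidative phosphorylation has 0 of 5.

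In the oligodendrocyte lineage the proximal intervals covered the course from specification to myelin. Gpr17, a receptor of differentiating precursors, had the strongest, with 5.11 in replicate 1 and 4.08 in replicate 2. Pdgfra, the receptor for the Pdgfa ligand above, had 6.28 and 3.81, centred 258 nt after the stop codon in a 3′ UTR of 3101 nt. Sox4, a transcription factor of immature neural cells, had 3.93 and 2.07. The transcription factors Olig1 (2.39 and 2.04), Sox9 (3.46 and 2.00) and Sox10 (2.51 and 1.48) followed. Genes of mature oligodendrocytes were in the lower part of the list, Mog with 2.76 and 1.80, Mbp with 1.75 and 1.35 and Cnp with 1.32 and 1.54. Over the list the medians were 2.76 and 2.04, below the 3.19 and 2.52 of all proximal intervals.

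Olig2, the transcription factor that commits cells to this lineage, had 2 proximal intervals among its 4 placed intervals. The first was centred 227 nt after the stop codon, began before the stop codon and had 7.28 in replicate 1 and 2.76 in replicate 2, more than 2-fold apart. The second, at 825 nt, had 1.83 and 1.51. Neither held a GGACT. Their GGAC nearest the midpoint and the sites of Pdgfra, Sox10 and Cspg4 are shown for comparison with the strongest intervals above, chosen after their values were seen.
Olig2, first interval (chr16:91227461-91227485, plus strand): aaggggagctGGACcacgggctggg
Olig2, second interval (chr16:91228181-91228205, plus strand): acccgactggGGACgctgttttttg
Pdgfra (chr5:75195180-75195204, plus strand): gttgagaagaGGACTtgggtgatgt
Sox10 (chr15:79155154-79155178, minus strand): gcagcaggctGGACactaaacccct
Cspg4 (chr9:56899693-56899717, plus strand): gggtggggatGGACaaatctggaca
The A of the first Olig2 site lies 102 nt and that of the Pdgfra site 92 nt after the stop codon, before the start of the zone, since both intervals are long.

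Of the other genes followed in the study, Cspg4, which encodes the NG2 proteoglycan of oligodendrocyte precursors, had 1.85 in replicate 1 and 2.38 in replicate 2 at 791 nt. Its stop codon interval had 3.97 and the same 2.38, from the same replicate 2 peak. Fto, the demethylase, had 2.12 and 1.44 at 319 nt, with no GGAC in its common bases. Prrc2a itself, with a 3′ UTR of 185 nt, cannot hold a proximal interval and had 8 placed intervals elsewhere. Ythdf2, an m6A reader, had 3 placed intervals and Nes, the intermediate filament nestin of neural stem cells, had 5, none of them in the zone. Of the m6A machinery, the only other gene with a proximal interval was Zc3h13, a subunit of the writer complex, with 2.20 and 3.01.

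Among the glutamate receptors, the kainate receptor genes Grik2, Grik3 and Grik5 had the highest lower value of both replicates. Grik2 had 3.44 and 3.87 at 206 nt and 3.41 and 3.6 at 956 nt, Grik3 4.85 and 3.43, and Grik5 5.43 and 3.07. The NMDA receptor gene Grin2d had 4.85 in replicate 1 and 2.74 in replicate 2. Of the GABA receptor genes, Gabra2 had 3.59 and 3.48, Gabbr2 5.67 and 2.52, and Gabra4 2.01 and 2.11. The GABA-B subunit Gabbr2 thus had the widest gap of these 3.

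Potassium channel genes held 11 intervals in 10 genes, and their medians were 2.89 (replicate 1) and 2.93 (replicate 2). Kcna6, a Shaker-type channel, had 6.33 and 3.98. The silent subunit genes Kcng4 and Kcng1 had 3.85 and 3.53, and 6.14 and 2.93. Of the synaptic genes, Lrrtm4, a postsynaptic adhesion protein, had 4.67 and 3.92, above its stop codon interval at 3.54 and 2.27 in both replicates. Dlgap4, a scaffold protein of the postsynaptic density, had 3.41 and 3.27, and Nlgn1, a neuroligin, 2.85 and 4.06.

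Among signalling genes, besides Irs1, the BMP receptor gene Acvr1 had 6.48 in replicate 1 and 3.50 in replicate 2, Ntrk2, which encodes the BDNF receptor TrkB, had 5.53 and 3.45, and Irs2 had 4.69 and 3.34. In Acvr1 this was the only placed interval, whereas Ntrk2 had 5 and Irs1 had 4. Transcription factor genes included Pou3f3 with 6.18 and 3.36, Nfix with 4.79 and 3.06, and Neurod2 with 5.51 and 2.74. Replicate 1 was the higher in these 3.

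Immediate early genes, which neuronal activity induces, had proximal intervals in Klf4 (4.62 and 3.29), Egr4 (6.15 and 3.16), Ier5 (5.10 and 3.01), Egr3 (4.09 and 2.57) and Egr1 (2.16 and 1.64). Replicate 1 was the higher in all 5. RNA-binding protein genes were led by the CELF splicing and decay regulators Celf4 (4.64 and 3.54), Celf5 (4.59 and 2.99) and Celf6 (2.55 and 2.43), with the neuronal ELAV gene Elavl3 at 4.38 and 2.88. The Elavl3 stop codon interval shared its replicate 2 value of 2.88 and had 3.10 in replicate 1.

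Genes with more than 1 proximal interval were few. None had over 2, and 75 had 2. In 37 of these the intervals were cut from a single peak of a replicate, such as Ddx6, an RNA helicase of P-bodies, whose intervals at 257 and 747 nt (4.36 and 4.66 in replicate 1) lay in a single replicate 2 peak of 938 nt with 3.75. In the other 38 genes both replicates had separate peaks, among them Grik2 and Lhx1. The second Lhx1 interval, at 800 nt, had 3.04 and 3.84.

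The tissue label was checked with marker genes. Placed shared intervals were present in 7 of 8 neuronal markers (Rbfox3, Snap25, Syt1, Tubb3, Slc17a7, Map2 and Nefl), 6 of 6 astrocyte, 6 of 6 oligodendrocyte, 5 of 5 microglial and 3 of 4 endothelial markers, and in none of 7 liver and 5 muscle markers. Peaks report methylated and expressed RNA together, so that an absent interval does not show absent expression. Proximal intervals were present in none of the neuronal markers, 1 astrocyte, 3 oligodendrocyte (Mbp, Mog and Cnp), 1 microglial and 2 endothelial markers.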

How the data were processed

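As the study's methods state, the authors trimmed reads with Cutadapt and Trimmomatic, aligned them with TopHat (TopHat2 2.0.9 in the submitters' processing notes) to mm10, and called peaks with MACS2 in each IP replicate against its own input, with no fragment model, all duplicates kept and a limit on the false discovery rate. Replicates were not pooled. The deposited values are the chromosome, start, end and fold enrichment of each peak, a ratio of IP over input that the caller takes at the summit, whose position is not used here. Wide peaks therefore carry a value from an unknown base, and kept duplicates can raise it. No depth can be given.

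Starts were read as 1-based, which makes the shortest peak 200 nt in both lists. Intersections (23901, the same number with bedtools 2.31.1) were placed on 21866 representative mRNAs of GENCODE M21. Sequences came from its transcripts, and printed sites were checked against GRCm38 with samtools 1.23.1. Shares have 95% Wilson and differences 95% Newcombe intervals (scipy 1.17.1, Python 3.11.15). They treat intervals as units, whereas only 2 samples stand behind every value, so no test over samples was made. Scripts were tested on simulated data with known answers (16 of 16 checks passed). DRACH was searched by its degenerate letters and all motifs on the mRNA strand only.

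Named genes were the 15 strongest intervals (1 per gene), genes with 4 or more proximal intervals (none), the 5 with the largest excess over the stop codon interval in both replicates, up to 4 per gene list (some are not reported here) and 9 genes of the study. Others (Lnx2, Kcnb2, Tmem132e, Ddx6, Klf9, Rps19 and further list members) were named after their values were seen. The position rule and the gene lists were chosen with earlier results of these data known. Alternatives changed the overlap, the fold enrichment, the representative mRNA, exons of other genes, the start of the zone, the replicates used, and the window, motif and background.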

Additional observations from a re-analysis of the deposited data

How the results depend on the processing

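The number of proximal intervals (2109) and of their genes (2034) stayed within 1.5 times under every alternative tried, from 1476 and 1448 to 2663 and 2573. The density ratio of 0.737 stayed below 1 throughout: it was 0.704 with overlap of at least 50% of both peaks, 0.849 with a fold enrichment of at least 2, 0.765 with the longest spliced mRNA, 0.742 without exons of other genes, 0.609 with the zone from more than 300 nt, 0.713 over all mRNAs with a UTR above 1000 nt, and 0.672 to 0.672 with 1 replicate left out. The log2 difference from stop codons averaged -0.02, and was -0.16 without intervals with a peak over the stop codon, an alternative chosen after seeing the data. The difference from distal intervals averaged 0.13, was 0.14 to 0.16 with 1 replicate left out, and turned to -0.01 without those intervals. Within an mRNA the difference of -0.03 was -0.12 with 50% overlap, -0.09 with means, -0.12 with separate peaks (also added later), and -0.22 to -0.02 with 1 replicate left out. The GGACT difference of 12.6 points was 20.2 with windows of 100 nt either side, 26.1 for GGAC, 15 without intervals with a peak over the stop codon, and positive under all other alternatives. Shares found again fell to 64.2% and 71.6% with 50% overlap and to 73.3% and 82.9% from 300 nt on, and for replicate 1 to 66.1% at a fold enrichment of at least 2. The share of genes with a stop codon interval was 17.5% with 50% overlap, 16.3% at a fold enrichment of at least 2, 32.7% from 300 nt on and 26.4% to 27.3% with 1 replicate left out. Where a value moved, the cause was not tested.

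No paired analysis was possible because the input samples with the same replicate numbers came without values here and enter only through the fold enrichment of their IP sample. Without read counts, weak intervals cannot be weighed by depth.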

Other observations

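A few further gene families were counted after the data had been seen, against the same 24.5% of genes with a placed interval. Solute carrier genes (symbols starting with Slc) held a proximal interval in 59 of 164 genes (36.0%, 95% Wilson interval 29.0 to 43.6), potassium channel genes of all classes in 21 of 57 (36.8%, 25.5 to 49.8) and Krüppel-like factor genes in 5 of 13 (38.5%, 17.7 to 64.5). Zinc finger genes named Zfp held one in 47 of 257 (18.3%, 14 to 23.5), Sox genes in 4 of 15 (26.7%, 10.9 to 52.0), Fgf genes in 1 of 7 (14.3%, 2.57 to 51.3) and genes named Ndufa, Ndufb or Ndufs in 0 of 3. Klf9, a thyroid hormone response gene of neurons, had 6.41 in replicate 1 and 3.53 in replicate 2. Of 82 genes for cytosolic ribosomal proteins, with a median 3′ UTR of 89 nt, 32 reached the zone, and Rps19 was the only one with a proximal interval (1.98 and 2.07), where 12.0% of all genes reaching the zone held one. That share covers all UTR lengths. Among all genes with a 3′ UTR of 201 to 500 nt, 83 of 3996 held one, and the ribosomal genes were not matched for length.

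GAGAG was at rank 11 of the 1024 5-mers by ratio, at 3.55 per kb in member windows and 1.27 in peak-free windows of mRNAs with a placed interval. It was singled out after its value was seen. It was present in 18.1% (16.6 to 19.8) of member windows, 18.8% of stop codon windows, 20.8% of distal windows and 10.3% (9.17 to 11.4) of the peak-free windows of member genes. Longer runs (GAGAGAGA) were in 1.99% (1.48 to 2.68) of member windows against 0.473% (0.276 to 0.807), and in 3.06% (2.23 to 4.19) of distal windows. What part such repeats have in the enrichment was not tested.

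The proximal intervals without a peak over the stop codon held GGACT in 22.3% (20.1 to 24.8) of windows, and those with such a peak in 16.7% (14.4 to 19.2). Their midpoints lay at a median of 537 and 311 nt after the stop codon, and the latter had the higher fold enrichment. The window has a fixed width whatever the length of the peak. What part peak length has in either difference was not tested.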
